A study of Homo sapiens with 20 samples.

Results

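The transcription factors described here are the 4 FOS genes (FOS, FOSB, FOSL1 and FOSL2), the 3 JUN genes (JUN, JUNB and JUND) and the 3 EGR genes EGR1, EGR2 and EGR3. They were chosen by name, with earlier results of these data known, and all 10 were found by Ensembl identifier among the 57500 genes listed for each library. Total RNA was sequenced from NTERT cells, which are human keratinocytes immortalised with hTERT and grown here as differentiated epithelial sheets. WT cells carried a control guide RNA, and GCN2KO cells were an early-passage pool, not a clone, in which CRISPR/Cas9 had been directed at EIF2AK4, the gene of the kinase GCN2. Each genotype was left unwounded or harvested 6 h after high-density wounding (HDW), in which a grid of scratches is drawn with pipet tips to bring much of the sheet close to a wound edge. The 4 groups are named WT or GCN2KO with unwounded or HDW and have 5 libraries each, and which of the study's guides the sequenced pool carried is not given in the sources used here. The labels do not say that the 5 libraries of a group came from separate cultures. The study describes plating in replicates of 5 and gives n as a number of biological replicates. Whether these were independent experiments is not stated, so p-values measure the spread between these libraries, which may be partly technical.

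FOS and JUN proteins are leucine zipper proteins that pair with each other to form AP-1, which binds the sequence TGACTCA and its relatives in promoters and enhancers. EGR proteins bind GC-rich sites through zinc fingers. FOS, FOSB, JUN, JUNB and the EGR genes are classic immediate-early genes, switched on within minutes of growth factor or injury signals through MAP kinases, the serum response factor SRF and its ETS partners, and many fall back within hours. FOSL1, the gene of FRA-1, follows more slowly and is known from keratinocytes that migrate into a wound, while JUND is often expressed steadily. The harvest at 6 h falls after this first wave.

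The libraries held 14083504 to 34611570 counts on genes, and values below are counts per 1000000 (CPM) after TMM scaling unless another scale is named. EIF2AK4 lay at 138 to 158 CPM in the 10 WT libraries and at 28 to 33.4 CPM in the 10 GCN2KO libraries, so no library went against its genotype label. All 12 keratinocyte markers were detected in every group, with a summed level of 18767 to 29094 CPM. Single markers differed between the genotypes in both directions. IVL had means of 109 and 155 CPM in WT and 385 and 603 CPM in GCN2KO cells, unwounded and after HDW. KRT14 had 2201 and 2545 CPM against 1221 and 1487 CPM, and the group means of KRT1 were only 0.389 to 0.779 CPM. Melanocyte markers summed to 4.53 to 7.28 CPM in WT and 12.2 to 22.4 CPM in GCN2KO libraries, most of it MITF, and TYR had 0 counts in every group. PMEL and MLANA were detected, with group means of 1.43 to 2.02 CPM and 0.733 to 1.35 CPM. After HDW MLANA was higher in GCN2KO cells (log2 fold change 0.79, edgeR adjusted p = 0.0021). Immune markers summed to 17.3 to 65.3 CPM, most of it CD14, with PTPRC or LYZ at 0 in each group. Means of CD14, unwounded and after HDW, were 58.5 and 31.8 CPM in WT and 27.3 and 20 CPM in GCN2KO cells. CD68 went the other way, with 1.69 and 2.38 against 3.29 and 3.42 CPM. So did CD79A, with 0.307 and 0.27 against 0.669 and 0.642 CPM. Fibroblast and endothelial markers summed to 23.3 to 36.3 CPM and 0.38 to 1.3 CPM. GCN2KO HDW replicate 5 stood apart from its group, with a root mean square distance of 0.202 on the log2 scale from the group median over 9629 genes against 0.0531 to 0.117 in its other 4 libraries. GCN2KO unwounded replicates 3 and 5 deviated from their group together (r = 0.641 across genes, which are not independent replicates), and so did replicates 2 and 4 (r = 0.572), so this group held 2 such pairs. Values without replicates 3 and 5 are given beside the results they move, and no fit without replicates 2 and 4 was made.

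Per kilobase of exon, the order of the levels in WT unwounded cells was led by JUNB, with 112 ± 12.3 CPM per kb (SD, n = 5), and FOSL2, with 76.5 ± 1.88. EGR1 followed at 26.2 ± 1.35, JUN at 16.3 ± 2.39, JUND at 11 ± 2.41, FOS at 9.79 ± 0.935 and FOSL1 at 5.75 ± 0.285 CPM per kb. The ranges of JUN and JUND overlapped, as did those of JUND and FOS, and the other neighbours among these 7 genes did not. FOSB at 0.293, EGR3 at 0.0846 and EGR2 at 0.0333 CPM per kb were nearly silent. After HDW in WT cells EGR1, at 54.2 ± 1.59 CPM per kb, had drawn level with FOSL2, at 52 ± 1.77, with overlapping ranges. In GCN2KO cells EGR1 stood lower in the order, at 8.3 ± 2.33 CPM per kb unwounded and 15.9 ± 2.78 after HDW, in both states overlapping JUND, while JUNB and FOSL2 kept the first and second ranks.

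The upstream sequences of 8 members were found in RefSeq (GRCh38.p14), and FOSL1 and EGR3 were not in the table used. Of these, EGR1, FOS, JUN and JUNB are shown because they differ in the short motifs found close to the start and in their response below. Each is the 250 bases before the RefSeq start on the gene's own strand, at chr5:138465229-138465478 (EGR1, plus strand), chr14:75278578-75278827 (FOS, plus), chr1:58784048-58784297 (JUN, minus) and chr19:12791236-12791485 (JUNB, plus). Capitals mark matches to the CArG box, the site of SRF, in EGR1, to TATAAA in FOS and JUNB, and to TGACATCA, a relative of the AP-1 site, in JUN. Sequence further upstream was not searched, so a gene with no CArG box marked here, such as FOS, may have one there. Whether the motifs bear on the response was not tested.
EGR1: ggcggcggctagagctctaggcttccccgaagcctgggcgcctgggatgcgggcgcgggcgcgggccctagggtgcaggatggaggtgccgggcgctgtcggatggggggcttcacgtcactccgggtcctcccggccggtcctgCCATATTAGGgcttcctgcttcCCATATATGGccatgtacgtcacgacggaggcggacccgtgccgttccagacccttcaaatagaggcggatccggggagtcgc
FOS: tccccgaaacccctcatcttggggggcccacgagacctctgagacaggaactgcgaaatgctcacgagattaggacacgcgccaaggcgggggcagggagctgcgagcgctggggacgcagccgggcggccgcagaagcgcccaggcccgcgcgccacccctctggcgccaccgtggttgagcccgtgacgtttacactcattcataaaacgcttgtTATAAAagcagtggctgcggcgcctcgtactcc
JUN: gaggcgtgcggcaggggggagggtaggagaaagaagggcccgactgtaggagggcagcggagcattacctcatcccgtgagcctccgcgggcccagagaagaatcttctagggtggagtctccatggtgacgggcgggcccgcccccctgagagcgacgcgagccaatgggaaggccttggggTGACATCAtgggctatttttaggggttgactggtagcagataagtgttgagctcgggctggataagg
JUNB: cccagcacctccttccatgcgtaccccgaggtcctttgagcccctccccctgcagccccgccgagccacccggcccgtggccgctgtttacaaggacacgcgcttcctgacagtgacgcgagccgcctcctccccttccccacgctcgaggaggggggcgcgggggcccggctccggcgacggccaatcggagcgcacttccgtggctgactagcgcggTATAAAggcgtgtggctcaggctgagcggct

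The EGR1 window held 2 CArG boxes, whose first bases lie 105 and 83 bases before the start, and 1.16% of 35116 promoter windows of the same length held at least 1 on either strand. EGR2 had 1 such match in 1 of its 3 windows. TATAAA lay 33 bases before the start of FOS and 31 before that of JUNB, and was also found in FOSB and in 10.7% of windows. TGACATCA was found in JUN and in 2.37% of windows, and TGACGTCA, the cyclic AMP response element, in JUND and in 1.65%. TGACTCA (4.2% of windows) and the EGR sites GCGGGGGCG (4.72%) and GCGTGGGCG (0.72%) had no match in the members' windows. Both strands were searched, so TGACTCA also stands for its complement. A CArG box can contain TATAAA, which none of the marked boxes does. These are matches of letters, and nothing in the data measures binding.

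In WT cells, wounding raised 6 members at 6 h and lowered 1. FOSL1, EGR1 and EGR3 rose most, FOSB, JUN and JUNB rose less, FOSL2 fell, and FOS and JUND did not pass the test. Of 9 members tested (EGR2 had too few reads), 6 were higher in edgeR's quasi-likelihood test at a p of at most 0.05 after Benjamini-Hochberg adjustment over all genes, the adjusted p below, where 26.1% of all 15348 genes tested were, and 1 was lower, where 25.2% were. With the study's further threshold of a log2 fold change of at least 1, which defines a differentially expressed (DE) gene, 3 members were higher, against 2.62% of all genes. The median log2 fold change of the 9 members was 0.39 and that of all genes 0.00. The groups did not overlap in 6 members, and in 36.9% of all genes tested. In such bulk RNA, a change in the number of expressing cells and a change in RNA per cell cannot be told apart.

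FOSL1, whose FRA-1 protein lacks the activation domain of FOS, lay at 10.7, 10.2, 10.5, 11.4 and 11.4 CPM in WT unwounded replicates 1 to 5 and at 29.1, 33.3, 36.2, 32.1 and 33 CPM in WT HDW. Every wounded library lay above every unwounded one, by a factor of 3.02 between the means. The log2 fold change was 1.58 (SE 0.061, adjusted p = 4.94e-11). FOSL2, the gene of the related FRA-2, moved the other way, from 541, 551, 537, 570 and 541 CPM to 368, 390, 377, 356 and 369 CPM. Its groups did not overlap either, and the log2 fold change was -0.56 (SE 0.033, adjusted p = 3.55e-09). FOS itself, the first of the early genes, had 27.4, 35.6, 29.9, 31.7 and 31.2 CPM unwounded and 26.1, 30.7, 30.9, 26.7 and 30.3 CPM after HDW. These ranges overlapped, with a log2 fold change of -0.11 (SE 0.065, adjusted p = 0.179). FOSB rose from a range of 1.24 to 2.18 to one of 2.7 to 3.64 CPM, a log2 fold change of 0.88 (SE 0.15, adjusted p = 1.87e-04) at 18 to 121 counts per library.

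Measured per length, the FOS family of WT cells thus held more FOSL1 and less FOSL2 after wounding. FOSL1 made up 6.23% ± 0.299 (SD, n = 5) of the family's CPM per kb in WT unwounded and 22% ± 1.11 in WT HDW cells. FOSL2 made up 82.9% ± 0.698 and 65.8% ± 1.44. FOS held 10.6% ± 0.851 and 11.5% ± 0.489, and FOSB stayed below 1% in every WT library, with a highest value of 0.827%.

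**Figure D1:**
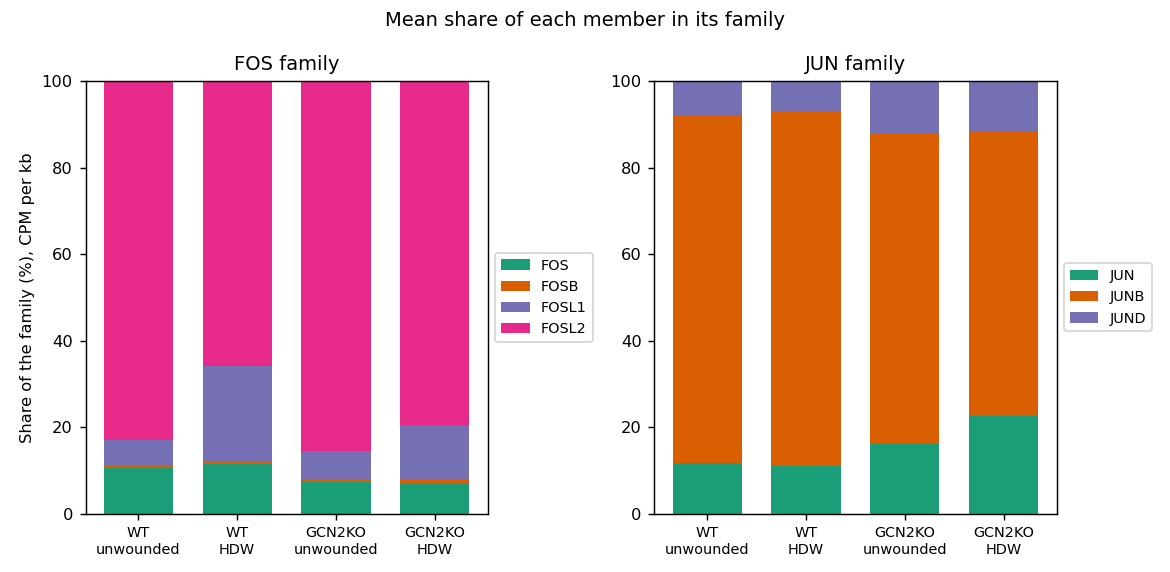
Mean share of each member in the summed CPM per kb of the FOS family (left) and the JUN family (right), in percent, for the 4 groups of 5 libraries. FOSL1 takes 22% of the FOS family in WT HDW cells and 12.6% in GCN2KO HDW cells, and JUNB takes 82% and 65.7% of the JUN family in the same groups.

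EGR1, the zinc finger factor that gives the EGR family nearly all of its reads, lay at 76.7, 85.2, 78.7, 85.7 and 85 CPM in WT unwounded and at 168, 168, 176, 164 and 174 CPM in WT HDW replicates 1 to 5. The groups lay far apart, with a ratio of the means of 2.07 and a log2 fold change of 1.04 (SE 0.037, adjusted p = 2.60e-11). EGR3, a relative that acts in the same early response, rose from 0.553, 0.248, 0.336, 0.323 and 0.67 CPM to 1.61, 0.965, 1.44, 2.22 and 1.53 CPM. The groups did not overlap, and the log2 fold change was 1.82 (SE 0.28, adjusted p = 5.84e-05), on 4 to 64 counts per library. EGR2 had 0, 1, 3, 5 and 8 counts in WT unwounded and 8, 7, 3, 5 and 7 in WT HDW libraries, too few to test. EGR1 made up 99.6% of the family per length before and 99.3% after wounding.

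In the JUN family, JUNB, a partner of FOS proteins that is often a weaker activator than JUN, had 230, 228, 182, 190 and 194 CPM unwounded and 255, 285, 291, 253 and 257 CPM after HDW in WT cells. The groups did not overlap, and the log2 fold change was 0.39 (SE 0.068, adjusted p = 2.03e-04). JUN had 67.6, 68.9, 55.8, 49 and 54.8 CPM against 70.8, 78.1, 79.4, 66.1 and 66.2 CPM. The groups overlapped, and the log2 fold change of JUN was 0.30 (SE 0.086, adjusted p = 0.00934). With all 20 libraries in a single fit, the same change had an adjusted p of 0.104. JUND, at 16.8 to 27.5 CPM and 19.8 to 29 CPM, had a log2 fold change of 0.21 (SE 0.14, adjusted p = 0.216), and without the filter on low counts this passed, with an adjusted p of 0.0343. JUNB shares 14.2% of its exonic bases with HOOK2 on the other strand, and since the counting is not stated to use strand, its reads are uncertain to that extent.

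**Figure D2:**
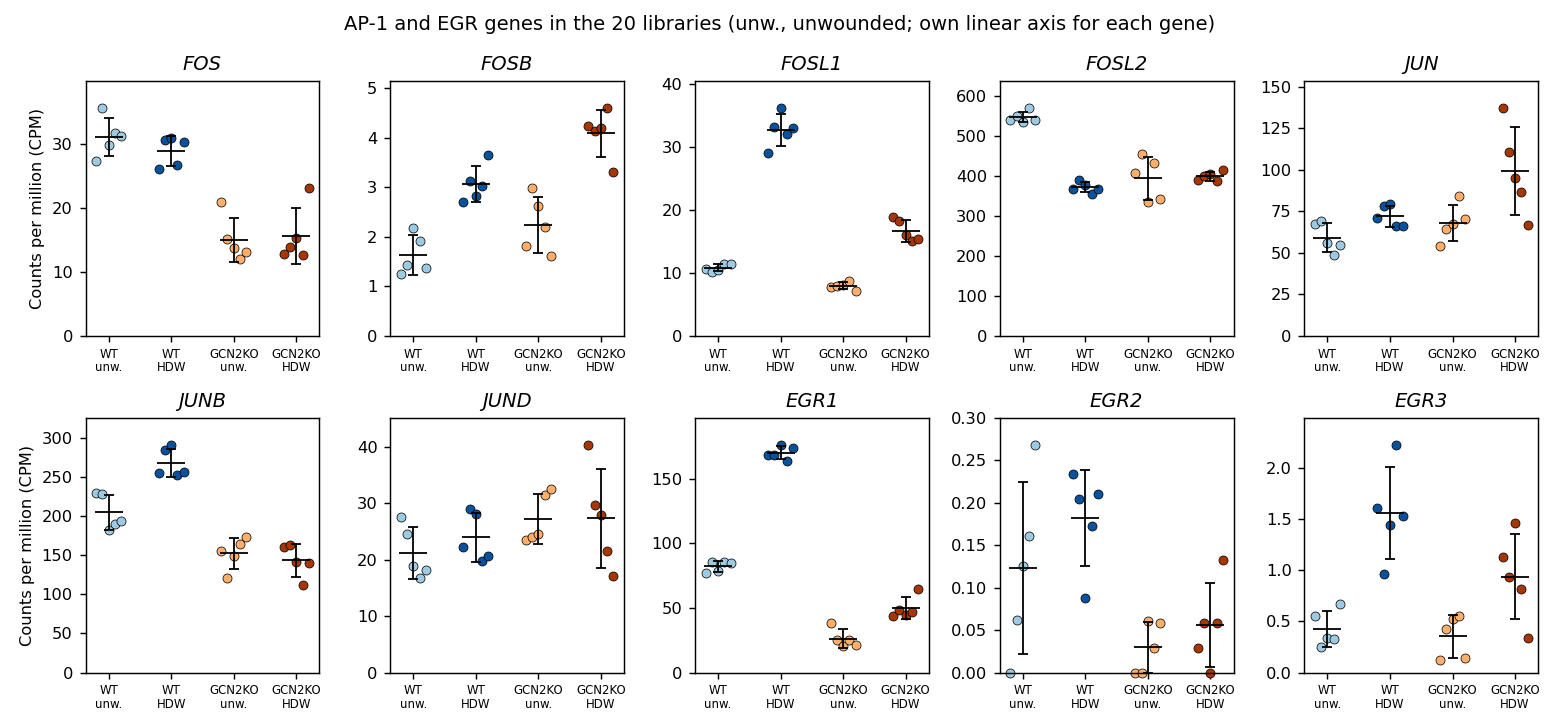
CPM of the 10 genes in the 20 libraries, each gene on its own linear axis from 0. Points are libraries in the order of replicates 1 to 5, and black bars are the group mean and SD. EGR1 lies at 164 to 176 CPM in WT HDW and at 43.4 to 65 CPM in GCN2KO HDW libraries, and FOSL2 at 537 to 570 CPM in WT unwounded libraries and 336 to 455 CPM in the other groups.

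In GCN2KO cells wounding raised 5 members at 6 h, namely FOSB, FOSL1, JUN, EGR1 and EGR3, and lowered none. Of the 9 tested, 5 were higher at the adjusted p, where 11.9% of 15791 genes were, and 2 were DE genes, where 0.475% were higher. No member was lower, against 10.8% of all genes, and neither edgeR at an unadjusted p under 0.05 nor DESeq2 called one. The 5 became 3 without GCN2KO unwounded replicate 1 or GCN2KO HDW replicate 1 or 2, and the 2 DE genes became 1, FOSL1, without GCN2KO unwounded replicate 5 or GCN2KO HDW replicate 1, 2 or 3. The groups did not overlap in 3 members, FOSB, FOSL1 and EGR1, and in 15.2% of all genes. The biological coefficient of variation, the spread between libraries beyond counting, was 0.108 here and 0.0587 for wounding in WT cells.

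FOSL1 rose from 7.83, 7.99, 8.14, 8.79 and 7.19 CPM in GCN2KO unwounded replicates 1 to 5 to 18.9, 18.3, 16, 15.1 and 15.4 CPM in GCN2KO HDW. The groups lay apart, with a ratio of the means of 2.1 and a log2 fold change of 1.08 (SE 0.089, adjusted p = 2.07e-05). EGR1 rose from 38.5, 25.4, 20.2, 25 and 21.2 CPM to 43.4, 48.7, 44.9, 47.1 and 65 CPM. Here too every wounded library lay above every unwounded one, with a ratio of 1.91 and a log2 fold change of 0.95 (SE 0.16, adjusted p = 0.00186), just under the fold threshold of a DE gene. Without GCN2KO unwounded replicates 3 and 5 it was 0.76 (adjusted p = 0.0155). FOSB rose from a range of 1.61 to 2.98 CPM to one of 3.3 to 4.59 CPM, a log2 fold change of 0.89 (SE 0.16, adjusted p = 0.00249).

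FOSL2 and JUNB, which moved in WT cells, did not pass the test in GCN2KO cells. FOSL2 had 408, 455, 336, 433 and 342 CPM unwounded and 391, 401, 405, 387 and 416 CPM after HDW, with a log2 fold change of 0.03 (SE 0.087, adjusted p = 0.841). The wounded libraries lay inside the range of the unwounded ones, whose lowest values were replicates 3 and 5, and without these replicates the log2 fold change was -0.10 (adjusted p = 0.243). JUNB had 156, 121, 149, 164 and 173 CPM against 161, 163, 141, 112 and 140 CPM, a log2 fold change of -0.08 (SE 0.11, adjusted p = 0.628). FOS had a log2 fold change of 0.07 (SE 0.18, adjusted p = 0.797) and JUND of 0.02 (SE 0.18, adjusted p = 0.958), both with overlapping groups.

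The calls of JUN and EGR3 in GCN2KO cells were the least stable of the 5. JUN had 54.4, 64.3, 67.4, 84.3 and 70.2 CPM unwounded and 137, 111, 95.1, 86.8 and 66.7 CPM after HDW. The last of these lies among the unwounded values, and the log2 fold change was 0.55 (SE 0.16, adjusted p = 0.0233). It lost the threshold without any single one of GCN2KO unwounded replicates 1 and 3 (adjusted p of 0.053 and 0.0505) and GCN2KO HDW replicates 1 and 2 (0.0575 and 0.0612). EGR3, at 3 to 50 counts per library, had 0.119, 0.426, 0.518, 0.555 and 0.147 CPM against 1.13, 0.931, 1.46, 0.814 and 0.333 CPM, with overlap only through HDW replicate 5. Its log2 fold change was 1.41 (SE 0.41, adjusted p = 0.0247), with adjusted p-values of 0.0501 to 0.075 without GCN2KO unwounded replicate 1 or 5 or GCN2KO HDW replicate 1, 2 or 3. Without GCN2KO unwounded replicates 3 and 5 together, the adjusted p was 0.0992 for JUN and 0.105 for EGR3. EGR2 had at most 4 counts in any GCN2KO library and was not tested.

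**Figure D3:**
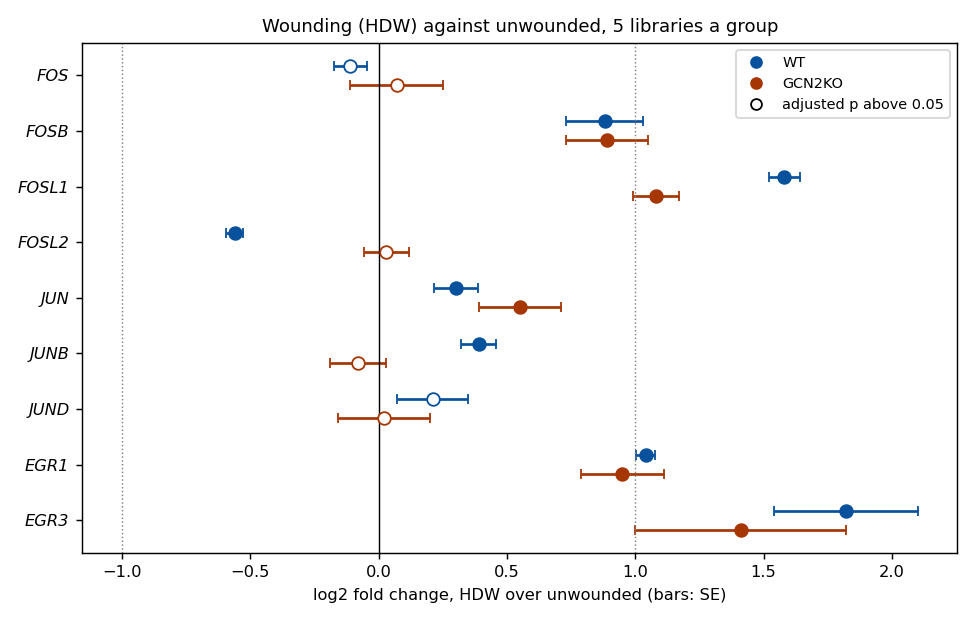
Log2 fold change of HDW over unwounded cells for the 9 members tested, in WT and in GCN2KO cells, with SE bars; open points have an adjusted p above 0.05 and dotted lines mark a log2 fold change of 1 in either direction. FOSL1 lies at 1.58 in WT and 1.08 in GCN2KO cells, FOSL2 at -0.56 and 0.03, and EGR1 at 1.04 and 0.95.

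The interaction of genotype and HDW, fitted over all 20 libraries, tested whether the response to wounding differed between the genotypes. It passed for 3 of the 9 members, FOSL1, FOSL2 and JUNB, with 1 more positive (11.2% of 16536 genes) and 2 more negative (12.5%) in GCN2KO cells. None reached a log2 difference of 1, which 3.31% of all genes did in either direction. FOSL1 rose by less in GCN2KO than in WT cells, with a difference of -0.51 on the log2 scale (SE 0.11, adjusted p = 0.00112). The fall of FOSL2 in WT cells was not matched in GCN2KO cells, with a difference of 0.58 (SE 0.094, adjusted p = 8.89e-05). The JUNB response was lower by -0.48 (SE 0.13, adjusted p = 0.0121). These 3 calls remained without each single library in turn, and for FOSL2 the difference then ranged from 0.53 to 0.63. Without GCN2KO unwounded replicates 3 and 5 together, in which FOSL2 was lowest, the differences were 0.43 for FOSL2 (adjusted p = 2.86e-05), -0.57 for FOSL1 (adjusted p = 8.68e-04) and -0.44 for JUNB (adjusted p = 0.0322).

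For EGR1 the difference between the responses was -0.10 (SE 0.17, adjusted p = 0.709). A difference well above its SE could have been missed, so this does not show that the responses were equal. Without GCN2KO unwounded replicates 3 and 5 it was -0.31 (SE 0.16, adjusted p = 0.18). That of FOSB was 0.00 (adjusted p = 0.999), of JUN 0.25 (SE 0.19, adjusted p = 0.374), of FOS 0.17 (SE 0.2, adjusted p = 0.566), of JUND -0.19 (SE 0.25, adjusted p = 0.621) and of EGR3 -0.42 (SE 0.55, adjusted p = 0.625). The large SE of EGR3 leaves its difference poorly measured.

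In unwounded cells, 5 members had lower levels in GCN2KO than in WT cells. Genotype and cell pool go together here, so loss of GCN2 cannot be told apart from other differences between the pools. EGR1 and FOS were lowest relative to WT, FOSL1, FOSL2 and JUNB were lower by less, and JUND was higher. Of 9 tested, 5 were lower at the adjusted p, where 33.1% of 15348 genes were, and 1 was higher, where 33.4% were. FOS and EGR1 were lower DE genes, against 8.22% of all genes, and without GCN2KO unwounded replicate 4 EGR1 alone was. The 1 higher member became 0 without WT unwounded replicate 4 or 5, and 2 without GCN2KO unwounded replicate 1. The groups did not overlap in the 5 lower members and in 53.3% of all genes. This comparison shares its libraries with those of wounding, and the values are given side by side.

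EGR1 had 20.2 to 38.5 CPM in GCN2KO unwounded and 76.7 to 85.7 CPM in WT unwounded libraries. The ratio of the means was 0.317 and the log2 fold change -1.66 (SE 0.14, adjusted p = 2.26e-08), or -1.47 without GCN2KO unwounded replicates 3 and 5. After HDW the GCN2KO libraries, at 43.4 to 65 CPM, still lay below all WT unwounded libraries and far below the WT HDW ones, at 164 to 176 CPM. There the log2 fold change was -1.77 (SE 0.089, adjusted p = 1.23e-09). EGR1 lies on chromosome 5, where genes were on balance higher in GCN2KO cells. The median log2 fold change of 694 other tested genes of this chromosome was 0.35 in unwounded cells, and that of 720 such genes 0.36 after HDW. Whether the pools differ in copies of this chromosome was not tested. Within 10 Mb of EGR1, the median of 142 tested genes was 0.26 in unwounded cells, and that of 148 such genes 0.42 after HDW. For the other members these medians lay between -0.14 and 0.09, so EGR1 went against its neighbours and the others had neighbours near 0.

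FOS had 20.9, 15.2, 13.8, 12.1 and 13.2 CPM in GCN2KO unwounded replicates 1 to 5, all below the 27.4 to 35.6 CPM of WT unwounded. The log2 fold change was -1.05 (SE 0.12, adjusted p = 1.37e-06). Its fold was at the edge of the DE threshold, and it was no longer a DE gene without GCN2KO unwounded replicate 4, or without replicates 3 and 5 together, although it stayed past the adjusted p when any single library was left out. After HDW FOS had 12.8, 13.9, 15.3, 12.7 and 23.2 CPM, again below every WT HDW library, with a log2 fold change of -0.89 (SE 0.14, adjusted p = 4.50e-05). Without GCN2KO HDW replicate 5 this was -1.07.

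FOSL1, FOSL2 and JUNB were lower in unwounded GCN2KO cells, with log2 fold changes of -0.44 (SE 0.082), -0.47 (SE 0.085) and -0.42 (SE 0.095). Their adjusted p-values were 1.71e-04, 1.41e-04 and 9.85e-04, and no groups overlapped. FOSL2, at 336 to 455 CPM, lay in the unwounded GCN2KO libraries around the level that WT cells had after HDW, 356 to 390 CPM. Replicates 2 and 4 had 455 and 433 CPM and replicates 3 and 5 had 336 and 342 CPM, and without the latter pair the log2 fold change was -0.34 (SE 0.055, adjusted p = 9.02e-05). JUND was higher by 0.39 (SE 0.14, adjusted p = 0.019) with overlapping groups, and its adjusted p was 0.054 to 0.0637 without WT unwounded replicate 3, 4 or 5 or GCN2KO unwounded replicate 5. FOSB, JUN and EGR3 had log2 fold changes of 0.42 (adjusted p = 0.072), 0.21 (adjusted p = 0.107) and -0.27 (adjusted p = 0.575).

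After HDW, GCN2KO cells had 5 members at lower levels than WT cells (35.8% of 15855 genes) and 3 were higher (35.9%), and EGR1 was the only DE gene among the 9 (7.83% lower). With FOSL1 it made 2 DE genes without WT HDW replicate 1 or GCN2KO HDW replicate 1, and with FOS 2 without GCN2KO HDW replicate 5. The groups did not overlap in 4 members, FOS, FOSL1, JUNB and EGR1, and in 57.2% of all genes. FOSL1 was lower by a log2 fold change of -0.96 (SE 0.074, adjusted p = 5.33e-08), with every GCN2KO HDW library, at 15.1 to 18.9 CPM, below every WT HDW library, at 29.1 to 36.2 CPM. JUNB was lower by -0.90 (SE 0.086, adjusted p = 4.00e-07), at 112 to 163 CPM against 253 to 291 CPM. Both genes thus differed more between the genotypes after wounding than before, which is what their interaction measures.

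The 3 higher members after HDW, FOSB, JUN and FOSL2, had overlapping groups. FOSB had a log2 fold change of 0.41 (SE 0.11, adjusted p = 0.00429) and JUN of 0.46 (SE 0.14, adjusted p = 0.00961). FOSL2 had one of 0.10 (SE 0.038, adjusted p = 0.0239), which lost the threshold without the filter (adjusted p = 0.201), in the fit of all 20 libraries (0.168) and without any of 4 single libraries, WT HDW replicates 1, 4 and 5 and GCN2KO HDW replicate 3. EGR3 was lower by -0.69 (SE 0.29, adjusted p = 0.0452), with adjusted p-values of 0.0587 to 0.116 without any of 7 single libraries, WT HDW replicates 1, 3, 4 and 5 and GCN2KO HDW replicates 2, 4 and 5. EGR2, with 3 to 8 counts in WT HDW and 0 to 4 in GCN2KO HDW libraries, was called a lower DE gene only by DESeq2 and by edgeR without the filter.

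**Figure D4:**
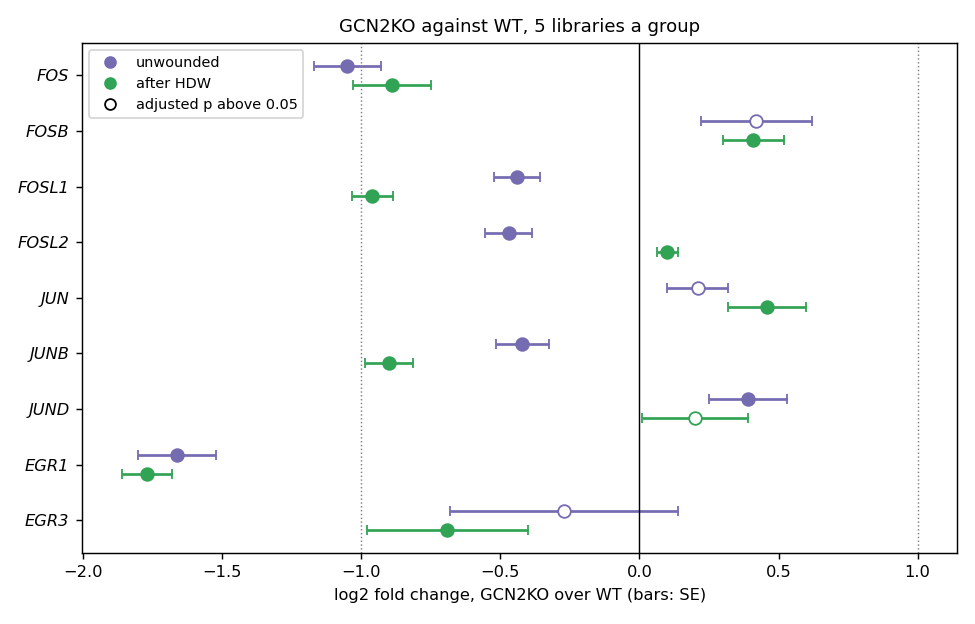
Log2 fold change of GCN2KO over WT for the 9 members tested, in unwounded cells and after HDW, with SE bars; open points have an adjusted p above 0.05 and dotted lines mark a log2 fold change of 1 in either direction. EGR1 lies at -1.66 and -1.77, FOSL1 at -0.44 and -0.96, JUNB at -0.42 and -0.90, and FOSL2 at -0.47 and 0.10.

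The make-up of the families differed between the genotypes in the same units. FOSL1 rose from 6.62% ± 0.735 to 12.6% ± 1.4 (SD, n = 5) of the FOS family per length in GCN2KO cells, and the 20.4% to 23.4% of the WT HDW libraries lay above the 11% to 14.5% of the GCN2KO HDW ones. FOS held 7.35% ± 1.54 and 6.91% ± 1.67 of the family in GCN2KO cells, unwounded and after HDW. In the JUN family JUNB held 80.5% ± 1.31 and 82% ± 0.887 in WT cells, and 71.6% ± 2.84 and 65.7% ± 5.01 in GCN2KO cells. JUN held 11.7% ± 0.646 and 11.1% ± 0.258 in WT cells, and 16.2% ± 2.13 and 22.7% ± 3.09 in GCN2KO cells. Every GCN2KO library had a larger share of JUN than any WT library, at 13.4% to 25.7% against 10.7% to 12.4%. These shares are descriptions with no test.

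Within groups, JUN, JUNB and JUND all deviated in the direction of the most GC-rich genes in 9 of 10 WT libraries and in 5 of 10 GCN2KO libraries. JUND and JUNB have 69.9% and 64.9% G and C in their longest transcript, more than 99.9% and 97.3% of 9616 genes compared, and JUN has 56.1%. In WT unwounded replicates 1 and 2, JUN, JUNB and JUND lay 0.16 to 0.40 above their group means on the log2 scale, and the median of the 962 most GC-rich genes, those with at least 60.9%, lay 0.05 and 0.04 above. In WT HDW replicates 2 and 3 the 3 genes lay 0.09 to 0.29 above, and that median 0.03. The exceptions include WT unwounded replicate 4, where the 3 genes lay at -0.26, -0.10 and -0.31 with a median of 0.01. In GCN2KO unwounded replicate 5 they lay at 0.06, 0.19 and 0.28 with a median of -0.05, and in GCN2KO HDW replicate 5 JUN and JUND lay at -0.53 and -0.61 with a median of 0.00. Between groups, the median log2 fold change of these 962 genes was 0.12 for wounding in WT and 0.06 in GCN2KO cells, -0.19 for GCN2KO against WT unwounded and -0.29 after HDW. JUNB differed in the same direction as this median in 3 of these comparisons, each time by more, and JUND, at 0.39 and 0.20 between the genotypes, lay on the other side of 0. What part GC content has in these values was not tested.

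**Figure D5:**
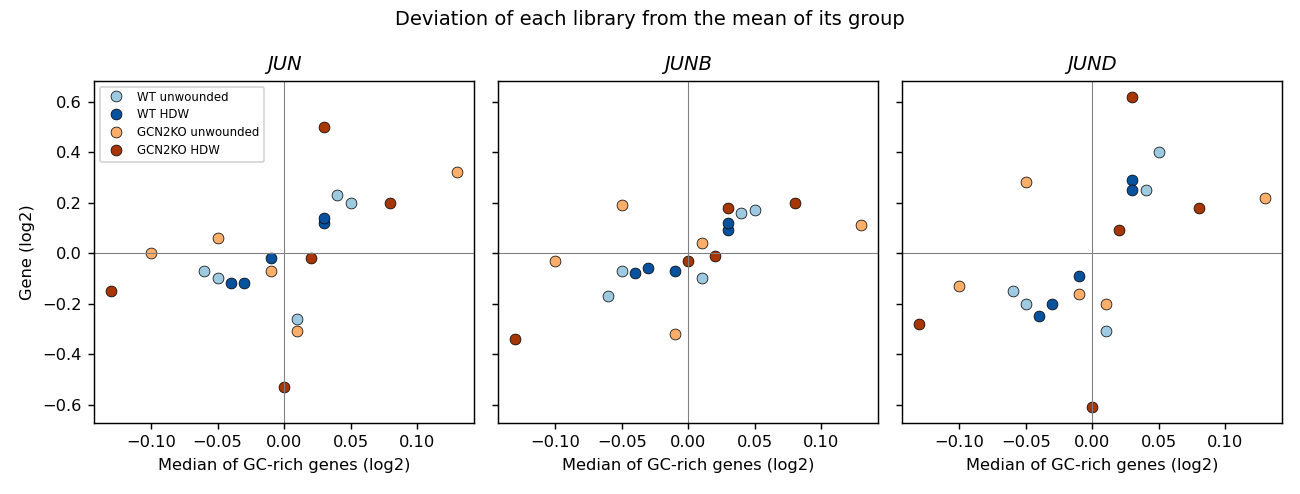
Deviation of JUN, JUNB and JUND from the group mean in each of the 20 libraries (vertical axis, log2) against the median deviation of the 962 most GC-rich genes (horizontal axis, log2), coloured by group. All WT libraries in which the 3 genes lie above their group means have a median above 0, and GCN2KO HDW replicates 1 and 5 lie at 0.62 and -0.61 for JUND with medians of 0.03 and 0.00.

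Single GCN2KO libraries moved FOS and EGR1 together and JUN the other way. GCN2KO HDW replicate 5 had the highest FOS (23.2 CPM) and EGR1 (65 CPM) of its group and the lowest JUN (66.7), JUND (17.1), FOSB (3.3) and EGR3 (0.333). GCN2KO unwounded replicate 1 had the highest FOS (20.9 CPM) and EGR1 (38.5 CPM) and the lowest JUN (54.4) and EGR3 (0.119) of its group. In WT cells the spread of EGR1 was narrower, with an SD of 4.22 and 4.99 CPM at means of 82.3 and 170.

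The gene whose pattern over the 20 libraries was most like each member was found by the root mean square difference of centred log2 CPM, among 12309 genes. For FOSL1 this was DUSP6, a phosphatase that dampens ERK signalling, at 0.156, against a spread of FOSL1 of 0.767. DUSP6 had mean levels of 9.32 CPM unwounded and 30.5 CPM after HDW in WT cells, and of 8.4 and 16.8 CPM in GCN2KO cells. For EGR1 it was COL4A1, a basement membrane collagen, at 0.197 against a spread of 1.02, with 33.5, 59.3, 8.13 and 15.6 CPM. For FOS it was P2RY2, a receptor for extracellular nucleotides, at 0.119 against 0.549. FOSL2 was closest to PRSS12 (0.0679 against 0.239), JUNB to RNF126 (0.0935 against 0.396), JUN to CAVIN1 (0.157 against 0.348), JUND to SLC39A3 (0.154 against 0.329), FOSB to ETS1 (0.256 against 0.549) and EGR3 to FST (0.488 against 0.996).

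No kinase, SRF or ETS gene of the lists upstream of AP-1 and EGR was a DE gene of wounding. All gene lists from here on were chosen with earlier results of these data known. Their counts beside the shares of all genes are therefore descriptions, not tests. Of 14 MAP kinases and kinases they activate, 3 were higher and 6 lower after HDW in WT cells and 1 was higher and 2 lower in GCN2KO cells. Of 9 SRF and ETS factors, 3 were higher and 1 was lower in WT cells and 3 were higher in GCN2KO cells. The medians of these lists lay between -0.05 and 0.23 for wounding, beside 0.00 for all genes. Between the genotypes, 4 of the SRF and ETS factors were lower in GCN2KO cells in each state, with 1 higher in unwounded cells and 5 higher after HDW, and 4 MAP kinase genes were higher and 4 lower in unwounded cells against 5 and 3 after HDW. Of all genes, 33.4% were higher and 33.1% lower in unwounded GCN2KO cells and 35.9% and 35.8% after HDW. Of the 14 kinase genes, 1 was a lower DE gene in GCN2KO cells in each state, where 8.22% and 7.83% of all genes were. Their interaction was positive for 3 and negative for 2, where 11.2% and 12.5% of all genes were. That of the SRF and ETS factors was positive for 3 of 9 and negative for none. For wounding, the shares of all genes were 26.1% higher and 25.2% lower in WT cells and 11.9% and 10.8% in GCN2KO cells. Of the EGR cofactors and relatives, 3 of 5 could be tested. For wounding, 2 were lower and none higher in WT cells, with no call in GCN2KO cells. Between the genotypes, 2 of the 3 were lower in GCN2KO cells in each state, and 1 was higher after HDW.

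Among 14 other leucine zipper partners of FOS and JUN, 5 were higher and 2 lower of 11 tested after HDW in WT cells, and 2 higher and 2 lower of 12 in GCN2KO cells, beside the same shares of all genes. JDP2, a repressor that binds AP-1 sites, had 20.7 and 40.6 CPM in WT and 27.7 and 24.7 CPM in GCN2KO cells, a difference in response of -1.13 (SE 0.14, adjusted p = 2.60e-06). CREB5 also differed in response, by -2.57 (SE 0.79, adjusted p = 0.02), at mean levels of only 0.0399 to 0.733 CPM. ATF3, chosen here after its values were seen, is a stress-induced partner of JUN and had 74.4 and 62.7 CPM in GCN2KO against 7.86 and 10.1 CPM in WT cells. Its log2 fold change in unwounded cells was 3.24 (SE 0.15, adjusted p = 5.89e-11).

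Of 19 other immediate-early genes, 11 were higher and 2 lower of 17 tested after HDW in WT cells, and 9 were higher and none lower in GCN2KO cells. Of all genes, 26.1% were higher and 25.2% lower in WT cells, and 11.9% and 10.8% in GCN2KO cells. CCN1 and CCN2, which encode secreted matricellular proteins, rose in both genotypes. The log2 fold change of CCN1 was 1.22 (SE 0.073, adjusted p = 4.05e-09) in WT and 1.37 (SE 0.2, adjusted p = 7.45e-04) in GCN2KO cells, and that of CCN2 was 1.38 (SE 0.19, adjusted p = 2.01e-05) and 1.46 (SE 0.21, adjusted p = 7.45e-04). The nuclear receptor gene NR4A1 rose by 1.43 (SE 0.28, adjusted p = 5.54e-04) in WT and by 0.99 (SE 0.32, adjusted p = 0.0394) in GCN2KO cells. Its group means were only 0.321 to 0.882 CPM. NR4A2 rose by 1.10 (SE 0.16, adjusted p = 6.52e-04) in GCN2KO cells and did not pass in WT cells (0.18, SE 0.16, adjusted p = 0.373). The differences in response between the genotypes for CCN1, CCN2 and NR4A1 were 0.14, 0.08 and -0.45, with adjusted p-values of 0.7, 0.9 and 0.508, and that for NR4A2 was 0.92 (SE 0.24, adjusted p = 0.00649). Between the genotypes, 11 of 16 tested genes of this list were higher and 3 lower in unwounded GCN2KO cells, where 33.4% and 33.1% of all genes were. After HDW 11 of 17 were higher and 3 lower in GCN2KO cells, where 35.9% and 35.8% were. CCN2 was among the higher ones, by 1.62 (SE 0.19, adjusted p = 1.25e-06) unwounded and 1.70 (SE 0.22, adjusted p = 6.98e-06) after HDW. Of the 17 tested, the interaction was positive for 4 and negative for 3, where 11.2% and 12.5% of all genes were, and the median over the list was 0.00, beside -0.01 for all genes.

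Known targets of AP-1 and EGR in keratinocytes were mostly higher after HDW in WT cells, with 17 higher and 2 lower of 21 tested, where 26.1% and 25.2% of all genes were, and a median of 0.82 on the log2 scale. In GCN2KO cells 9 were higher and 1 was lower of 20 tested, where 11.9% and 10.8% of all genes were, and their median was 0.22. The interaction was negative for 11 and positive for 1 of 21, where 12.5% and 11.2% of all genes were, with a median of -0.52 beside -0.01 for all genes. Between the genotypes, 9 of 20 tested targets were higher and 9 lower in unwounded GCN2KO cells, where 33.4% and 33.1% of all genes were. After HDW 6 of 21 were higher and 12 lower in GCN2KO cells, where 35.9% and 35.8% were. Since this list was chosen with earlier results of these data known, an excess over all genes may come in part from the choice. PHLDA1 went from 124 to 271 CPM in WT cells (log2 fold change 1.13, SE 0.051, adjusted p = 2.66e-10) and from 283 to 300 CPM in GCN2KO cells, a difference in response of -1.05 (SE 0.079, adjusted p = 2.28e-09). MMP9, a matrix metalloproteinase that cells secrete as they cross matrix, had 4.06 and 25.6 CPM in WT and 0.655 and 1.07 CPM in GCN2KO cells, a difference of -1.94 (SE 0.34, adjusted p = 1.74e-04).

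KRT6A, a keratin of activated epidermis, rose by 1.03 (SE 0.04, adjusted p = 4.93e-11) in WT cells, CCND1, the gene of cyclin D1, by 1.02 (SE 0.05, adjusted p = 5.46e-10), and PLAUR, the urokinase receptor gene, by 1.43 (SE 0.08, adjusted p = 1.77e-09). In GCN2KO cells all 3 rose as well, KRT6A by 0.26 (SE 0.067, adjusted p = 0.0149), CCND1 by 1.26 (SE 0.11, adjusted p = 2.12e-05) and PLAUR by 0.56 (SE 0.088, adjusted p = 0.0012). KRT6A and PLAUR rose by less than in WT cells. Their differences in response were -0.78 (SE 0.077, adjusted p = 1.27e-07) and -0.88 (SE 0.12, adjusted p = 1.63e-05). That of CCND1, 0.23 (SE 0.12, adjusted p = 0.173), did not pass. Mean levels of KRT6A, unwounded and after HDW, were 2372 and 4844 CPM in WT and 5880 and 6992 CPM in GCN2KO cells. Those of PLAUR were 15 and 40.6 CPM against 23.9 and 35.1 CPM, and those of CCND1 115 and 233 CPM against 58.9 and 140 CPM. MMP10 differed in response by -3.64 (SE 0.73, adjusted p = 7.52e-04), with a mean of 1.83 CPM in WT HDW and 0.103 to 0.138 CPM in the other groups. MMP13 went the other way, with a difference of 1.55 (SE 0.46, adjusted p = 0.0165), since it fell from 8.32 to 2.61 CPM in WT cells and lay at 0.368 and 0.339 CPM in GCN2KO cells. The list holds targets of several factors, and which member acts on which gene was not measured.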

How the data were processed

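RNA of 20 NTERT samples, 4 groups of 5, was sequenced. The authors trimmed the reads with Trimmomatic, aligned them to GRCh38 with STAR and counted them per gene with featureCounts, and the deposited values are raw read counts per gene and library. The annotation release and the strand setting are not given in the sources used here. Of 57500 genes, 56410 were matched to GENCODE release 44.

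Counts were tested with edgeR 4.0.16 in R 4.3.3 (TMM, filterByExpr with a minimum count of 10 and total of 15, glmQLFTest), with 10 libraries per comparison and 20 for the interaction, adjusted over all genes tested. The SE is the size of the log2 fold change divided by the square root of F. Within groups, all 40 pairs of libraries differed by more than counting noise (mean chi-square per gene of 2.68 to 65.5). On simulated counts, 196 of 200 genes changed by 1.5 on the log2 scale were called for HDW in WT (15348 genes) and 179 for the interaction (16536 genes).

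The members and gene lists were chosen with earlier results of these data known. Named genes are the members, EIF2AK4, at most 4 DE genes of wounding or interaction per list and comparison, and each member's most alike gene among those with a mean of at least 50 counts; 1 named gene is not reported here. Alternatives were DESeq2 1.42.0, its size factors, scaling by totals, all genes without a filter, only genes with 50 counts or more on average, a single fit, the replicate number as a block, thinned counts, the longest transcript as length, and each library left out. Leaving out GCN2KO unwounded replicates 3 and 5 was added after seeing the data.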

Additional observations from a re-analysis of the deposited data

Results flagged for a closer look

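In 3 of 40 gene and group combinations, single libraries lay far from the other 4 of their group by Dixon's 95% limit, which chance passes in about 1 of 20 groups. FOS had 23.2 CPM in GCN2KO HDW replicate 5, against 12.7 to 15.3 CPM in the other 4. EGR1 had 65 CPM in the same library, against 43.4 to 48.7 CPM. EGR1 also had 38.5 CPM in GCN2KO unwounded replicate 1, against 20.2 to 25.4 CPM.

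The response to HDW differed between WT and GCN2KO cells for 3 members by edgeR's interaction test. The difference, GCN2KO minus WT on the log2 scale, was -0.51 for FOSL1 (edgeR adjusted p = 0.00112), 0.58 for FOSL2 (edgeR adjusted p = 8.89e-05) and -0.48 for JUNB (edgeR adjusted p = 0.0121). FOSL1 rose in both genotypes, with every wounded library above every unwounded one, FOSL2 fell in 5 of 5 WT HDW libraries below all WT unwounded ones, and JUNB rose in 5 of 5 WT HDW libraries above them.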

How the results depend on the processing

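Of 911 recomputed values for the members, 839 kept their direction and their side of the threshold. Wounding in GCN2KO cells gave 1 higher DE gene with a mean of at least 50 counts, with thinned counts and without GCN2KO unwounded replicates 3 and 5, the last with 3 members higher. GCN2KO against WT unwounded gave 2 higher members without the filter, with the replicate block and with thinned counts, and 1 lower DE gene without replicates 3 and 5. After HDW it gave 2 lower DE genes with DESeq2 and without the filter. Leaving out single libraries gave 3 to 5 higher members and 1 to 2 higher DE genes for wounding in GCN2KO cells, 0 to 2 higher members and 1 to 2 lower DE genes unwounded, and 1 to 2 lower DE genes after HDW. With the longest transcript as length, FOSL2 held 79.1% and 62.1% of the FOS family in WT cells, unwounded and after HDW, and 82.5% and 76.5% in GCN2KO cells, and JUNB 81% of the JUN family in WT HDW.

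Directions turned only in values that had not passed the test. For wounding in GCN2KO cells, JUND became -0.03 with the block and 0.00 with thinned counts, FOS -0.03 and FOSL2 -0.10 without replicates 3 and 5. With single libraries left out these ranged from -0.17 to 0.15 (JUND), -0.12 to 0.22 (FOS) and -0.03 to 0.08 (FOSL2), and EGR3 of GCN2KO against WT unwounded from -0.52 to 0.01. The interaction of FOSB, 0.00, became -0.01 with DESeq2, 0.00 without the filter, -0.01 with the higher minimum, -0.01 with the block, -0.22 with thinned counts and -0.06 without replicates 3 and 5, and ranged from -0.12 to 0.10 over single libraries. Those of FOS and EGR1 ranged from -0.02 to 0.32 and from -0.22 to 0.08.

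Replicate numbers are shared between the groups, but same-numbered libraries correlated by over 0.1 in at most 3 of 5 pairs. Their r ranged from -0.381 to 0.412 for wounding in WT and from -0.744 to 0.0639 in GCN2KO cells. The numbers are used here only to name libraries, and this check cannot exclude that some of them mark pairs. As a block they took JUN of wounding in GCN2KO cells to an adjusted p of 0.0658 and FOSB of GCN2KO against WT unwounded to 0.0385, and no more than 3 of 5 samples correlated best with their own number. The causes of these changes were not tested. Depth limits EGR2, with 0 to 8 counts per library, and EGR3, with 3 to 64.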
